A study of Homo sapiens with 2 samples.

Results

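The MYC and MAX network was followed in HCT15 cells, an established line from a human colorectal adenocarcinoma, by 1 array of cells given Cas9 and an ARID3B guide RNA, which carry the label ARID3B knockout, and 1 array of control cells. Both were cultured in RPMI with fetal bovine serum, and the sources used here do not say whether the edited cells were a clone or a pool. The network was taken as 10 genes: MYC, its partner MAX, the MAX-binding antagonists MXI1, MXD1, MXD3, MXD4, MNT and MGA, and the related pair MLX and MLXIP. A gene was measured by the probe sets that carry its symbol alone in the platform annotation, and its brightest probe set, by the mean of both arrays, stood for it. Of the 10 genes 9 were measured, with 27 probe sets, among 19775 genes in all. MXD4 was not, since its 3 probe sets also carry the symbol of a microRNA gene. Genes entered the comparison if their higher value reached 4.59 on the log2 scale, here called the floor, which is the median over all probe sets other than controls. All 9 passed, as did 12841 genes in all, and 21 of the 27 probe sets reached the floor.

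MYC is a transcription factor of the basic helix-loop-helix leucine zipper family that drives growth and, in colorectal cancer, is a target of Wnt signalling. It binds DNA as a dimer with MAX, at a short site called the E-box, and activates genes of ribosome production, nucleotide synthesis and the cell cycle. The MXD proteins and MNT compete for MAX and recruit SIN3 corepressors with histone deacetylases to the same sites. MGA also binds MAX and sits in a Polycomb-type repressor complex. In a parallel arm MLX pairs with MLXIP (MondoA) or MLXIPL (ChREBP), sensors of glucose metabolites, and it can also pair with MXD1, MXD4 and MNT.

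The values are RMA-normalised log2 intensities, and differences are given as knockout-labelled minus control. A single array per group allows neither a replicate check nor a test, so every difference describes these arrays alone, and their number limits the precision. The spread is the scaled median absolute deviation of differences among compared genes of similar expression, and it ran from 0.255 to 0.436. It is brought in for some genes only, and other differences are not judged against it. ARID3B itself was higher on the array labelled knockout, at 6.09 against 5.12 on the control array. The log2 difference was 0.97, in the only probe set that carries its symbol alone. The label was thus not borne out by the transcript, whose level does not show whether the protein was lost. The authors' normalisation sets both arrays to a common distribution, so each direction below is relative to all genes measured beside it. The 24 poly-A spike-in probe sets differed by a mean of -1.19, and the part of this in the results was not tested. Scaling on them puts the median of all compared genes at 1.22 in place of 0.04, and it turns MYC to 0.86, MAX to 0.40, MGA to 0.41 and MLXIP to 0.99. Of 11 colorectal epithelium markers 9 reached the floor, among them EPCAM at 12.2 on both arrays, while KRT20 and LGALS4 did not. The markers were not all alike on the arrays: CDX2 differed by 0.64, GPA33 by 0.57 and KRT19 by 0.27, and CDH1 by -0.45, and their part in the results was not tested. Of 7 measured markers of other cells the leukocyte marker PTPRC, COL1A2, PDGFRB and VWF were under the floor and CD3E, COL1A1 and PECAM1 reached it. In RNA from a whole culture, fewer cells that express a gene and less RNA per cell cannot be told apart.

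The 300 bases around a transcription start (250 before it and 50 after) were read for the E-box CACGTG and for the carbohydrate response element of Mondo proteins, written as CACGNG, 5 free bases and CNCGNG, on both strands. A 6-base part of the longer element can itself be an E-box, and in the matches printed here it was not. The E-box was found in 7.26% and the longer element in 0.501% of 35116 RefSeq promoter windows (GRCh38.p14). Of the network, 9 genes had a window in the table, 14 windows in all, and 3 of these held an E-box, those of MXD4, MNT and MLX. One of the 3 windows of MXI1 held the longer element. The windows of MNT, MLX and MXI1 are shown because they are the members with a match and a measured value, and those of TXNIP and ARRDC4 because these had the largest differences among the listed targets of Mondo proteins. Capitals mark the match, and a match is a description of the letters and not a site.
MNT, chr17:2401011-2401310, minus strand: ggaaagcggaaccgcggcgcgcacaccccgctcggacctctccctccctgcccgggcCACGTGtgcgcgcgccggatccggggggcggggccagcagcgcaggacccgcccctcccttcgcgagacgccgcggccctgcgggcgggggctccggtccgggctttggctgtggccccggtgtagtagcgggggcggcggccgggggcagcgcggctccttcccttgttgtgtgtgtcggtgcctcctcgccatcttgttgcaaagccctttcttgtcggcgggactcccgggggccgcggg
MLX, chr17:42566850-42567149, plus strand: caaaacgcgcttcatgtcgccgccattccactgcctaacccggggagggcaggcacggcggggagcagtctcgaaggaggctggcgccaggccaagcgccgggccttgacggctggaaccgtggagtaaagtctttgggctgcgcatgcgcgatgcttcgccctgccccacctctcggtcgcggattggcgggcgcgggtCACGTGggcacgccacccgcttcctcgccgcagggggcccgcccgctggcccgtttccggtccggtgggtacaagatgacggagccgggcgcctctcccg
MXI1, chr10:110209981-110210280, plus strand: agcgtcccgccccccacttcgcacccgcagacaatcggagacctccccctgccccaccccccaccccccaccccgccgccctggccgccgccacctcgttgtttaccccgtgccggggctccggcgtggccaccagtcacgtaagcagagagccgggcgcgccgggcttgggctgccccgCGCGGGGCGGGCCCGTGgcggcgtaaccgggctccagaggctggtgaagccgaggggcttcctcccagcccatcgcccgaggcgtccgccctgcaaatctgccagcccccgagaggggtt
TXNIP, chr1:145996530-145996829, minus strand: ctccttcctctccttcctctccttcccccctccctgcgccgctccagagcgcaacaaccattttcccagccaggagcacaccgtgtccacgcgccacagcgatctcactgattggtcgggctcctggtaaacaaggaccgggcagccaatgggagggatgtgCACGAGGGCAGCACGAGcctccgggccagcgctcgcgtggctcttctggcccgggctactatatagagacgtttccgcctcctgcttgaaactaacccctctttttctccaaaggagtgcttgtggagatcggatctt
ARRDC4, chr15:97960453-97960752, plus strand: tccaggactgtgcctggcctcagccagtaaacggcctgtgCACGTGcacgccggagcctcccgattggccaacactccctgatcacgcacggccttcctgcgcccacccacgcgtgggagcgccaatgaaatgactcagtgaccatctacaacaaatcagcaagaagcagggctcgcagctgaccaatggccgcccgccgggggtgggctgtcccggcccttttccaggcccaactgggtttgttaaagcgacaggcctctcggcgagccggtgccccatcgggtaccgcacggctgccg
The E-box began 193 bases before the start in MNT, 50 in MLX and 210 in ARRDC4, and the longer element began 88 bases before it in TXNIP and 70 in MXI1.

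Relative to all genes, MYC was slightly lower on the knockout-labelled array, though not when scaled on the spike-ins. Of its 5 measured antagonists 4 were higher, where 52.9% of compared genes were, and of the 4 MNT lay within its spread. MYC, on chromosome 8, had 1 probe set, which stood at 10.31 on the knockout-labelled array and 10.64 on the control array. The difference of -0.33 (1.26-fold lower) was somewhat above the spread of 0.255 at that expression, and 2528 of 12841 compared genes, MYC included, had a difference as low or lower. Transcripts next to MYC gave little to set beside it. The long non-coding RNAs PVT1 and CASC11 were under the floor on both arrays. POU5F1B, a retrogene near MYC, stood at 6.28 on the knockout-labelled array and 5.96 on the control array, within its spread of 0.395.

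MAX, the partner that MYC and its antagonists share, was lower on the knockout-labelled array in every one of its 5 probe sets, again not when scaled on the spike-ins. Its brightest stood at 8.54 on the knockout-labelled array and 9.32 on the control array, a log2 difference of -0.78 (1.72-fold lower) against a spread of 0.388. The other probe sets above the floor stood at 6.96, 5.99 and 5.59 on the knockout-labelled array and at 7.93, 7.03 and 5.95 on the control array, in the same order. Their differences of -0.97, -1.04 and -0.36 had 1 direction but not 1 size. The last, under the floor on both arrays, differed by -0.31. Probe sets of a gene share the RNA and are not replicates. All 4 of MAX above the floor are marked by the manufacturer as matching more than 1 transcript. Those at 5.99 and 5.59 carry the separate mark for probe sets able to match other transcripts.

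Among the antagonists, MXD1 was the only member past a 2-fold difference. MXD1 (MAD1) is a repressor that rises in many cells as they stop dividing and differentiate. It stood at 6.55 on the knockout-labelled array and 5.37 on the control array, a log2 difference of 1.17 (2.25-fold higher) with a spread of 0.342. Its next probe set differed less, at 6.17 on the knockout-labelled array and 5.49 on the control array (0.68), and the third was under the floor at 4.04 on the knockout-labelled array and 3.92 on the control array (0.11). As the mean of the 3 probe sets the difference was 0.66, so the 2-fold call rests on the brightest.

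MXI1, a MAX-binding repressor that is also induced by hypoxia through HIF-1, stood at 9.41 on the knockout-labelled array and 8.42 on the control array in its 1 probe set. Its difference of 0.999 lay just under the 2-fold threshold, and 136 of 12841 compared genes, MXI1 included, had one as high or higher. MXD3, an MXD protein found in cells in S phase, stood at 7.84 on the knockout-labelled array and 7.08 on the control array, a log2 difference of 0.76 with a spread of 0.412. MNT, the antagonist found in most cell types, stood at 8.59 on the knockout-labelled array and 8.22 on the control array. Its difference of 0.38 was below the spread of 0.388, and MNT therefore cannot be set apart from genes of similar expression.

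MGA went the other way from the MXD proteins and with MAX. It stood at 6.41 on the knockout-labelled array and 7.19 on the control array, a log2 difference of -0.77 (1.71-fold lower) against a spread of 0.436. Its other probe sets above the floor stood at 6.30 and 4.68 on the knockout-labelled array and at 7.03 and 5.87 on the control array, with differences of -0.73 and -1.19. All 3 were lower. The remaining one, far under the floor on both arrays, differed by 0.37.

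**Figure D1:**
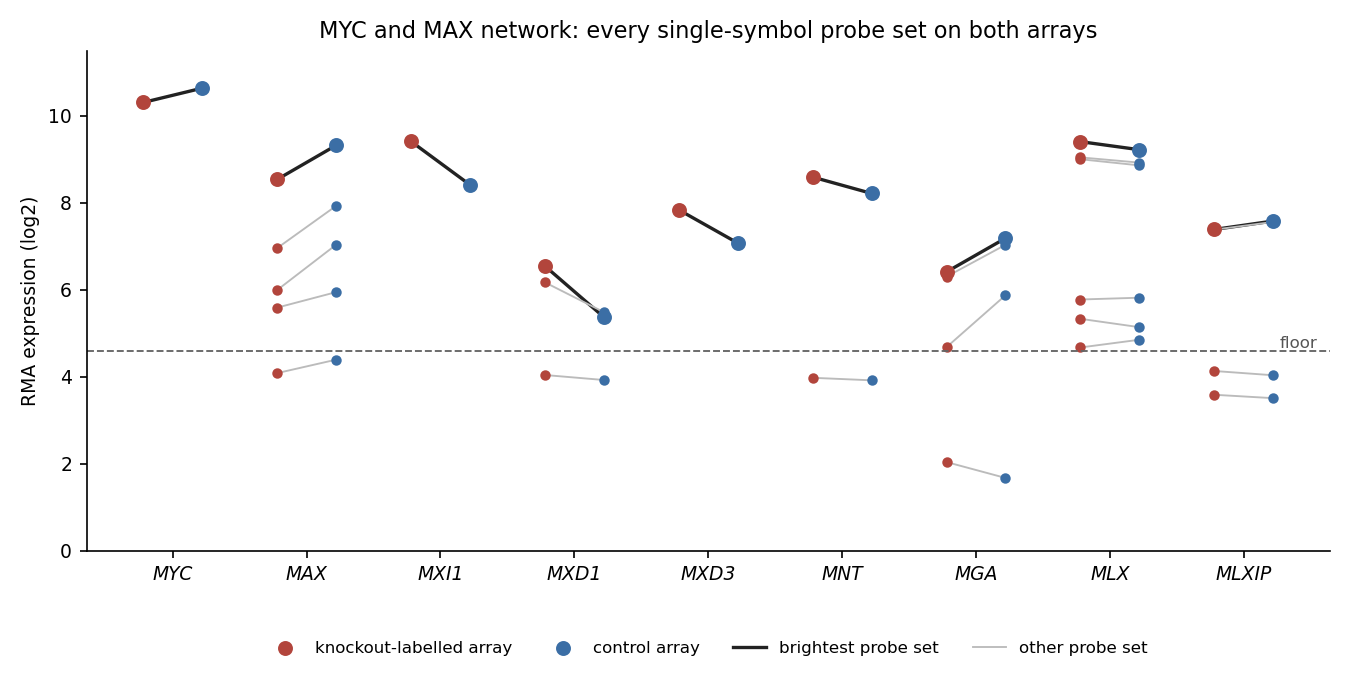
RMA expression on the log2 scale (vertical axis) of every single-symbol probe set of the 9 measured network genes, with the knockout-labelled array (red) left of the control array (blue) and a line joining the values of 1 probe set; the thick line is the brightest probe set and the dashed line the floor of 4.59. The lines of MXI1, MXD1, MXD3 and MNT run down towards the control array. Those of MYC and MAX run up, as do the 3 above the floor of the antagonist MGA.

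Relative to all genes, MYC and most of its antagonists thus differed in opposite directions. Scaled on the spike-ins they did not, since MYC was then higher too (0.86). The median difference of the 5 measured antagonists was 0.76, and MYC lay 1.09 below it on the log2 scale, or 2.13-fold. Relative to MYC, MXD1 was higher by 1.5 (2.83-fold), MXI1 by 1.33 (2.51-fold), MXD3 by 1.09 (2.13-fold) and MNT by 0.70 (1.63-fold). MGA differed from MYC by -0.45. MAX also differed from MYC by -0.46. These are contrasts of differences, which a common scaling of the arrays cannot move, and not of levels, since values of different probe sets are not comparable. The MLX arm differed little. MLX stood at 9.41 on the knockout-labelled array and 9.22 on the control array (0.19, spread 0.365), and MLXIP at 7.39 on the knockout-labelled array and 7.58 on the control array (-0.19, spread 0.412). Of the 6 MLX probe sets 4 were higher and 2 lower, and the 4 of MLXIP were split evenly, the brighter pair being lower.

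**Figure D2:**
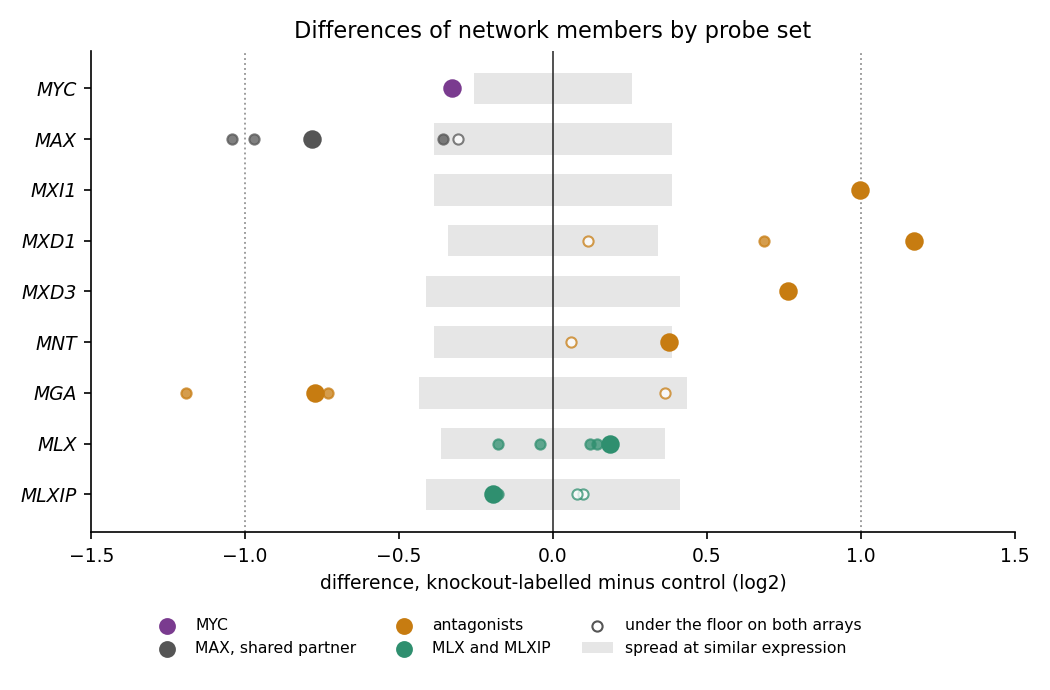
Difference of each probe set, knockout-labelled minus control on the log2 scale (horizontal axis), by gene; large points are the brightest probe sets, open points lie under the floor on both arrays, grey bars show the spread to each side of 0 among genes of similar expression, and dotted lines mark 2-fold. MXD1 at 1.17 lies beyond the dotted line, MXI1 at 0.999 on it, and MAX at -0.78 and MGA at -0.77 lie on the other side.

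Counted against a threshold, 1 of the 9 measured members was at least 2-fold higher, where 1.05% of the 12841 compared genes were, and none was 2-fold lower, where 3.79% were. At 1.5-fold, 3 members were higher (MXD1, MXI1 and MXD3), against 5.83% of compared genes, and 2 were lower (MAX and MGA), against 10.5%. In sign, 5 members were above 0 and 4 below, against 52.9% and 45.1% of compared genes. The median of the 9 was 0.19, beside 0.04 over all compared genes.

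**Figure D3:**
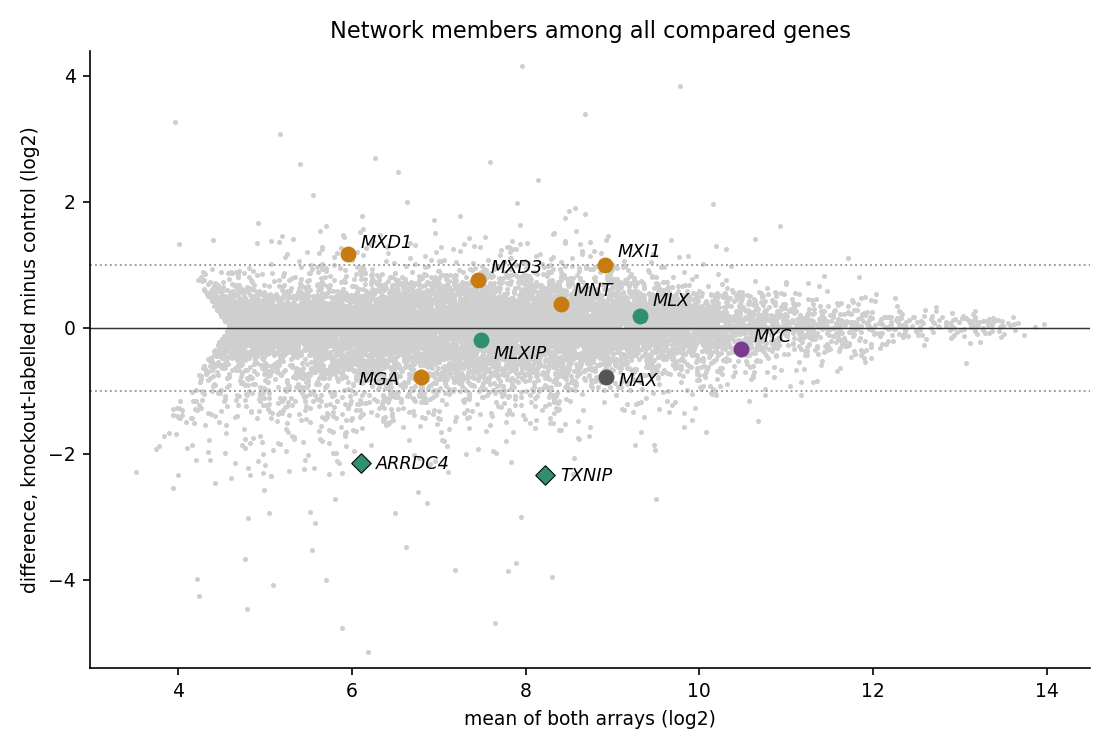
Difference, knockout-labelled minus control (vertical axis, log2), against the mean of both arrays (horizontal axis, log2) for the 12841 compared genes (grey), with MYC in purple, MAX in dark grey, the antagonists in orange, MLX and MLXIP in green, and the Mondo targets TXNIP and ARRDC4 as diamonds. The members lie between -0.78 and 1.17, and TXNIP and ARRDC4 lie at -2.34 and -2.14.

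The established targets of Mondo proteins with MLX were divided. TXNIP, an arrestin-like protein that restrains glucose uptake and binds thioredoxin, stood at 7.06 on the knockout-labelled array and 9.40 on the control array, a log2 difference of -2.34 (5.06-fold lower, spread 0.387). Its other probe sets were lower as well, at 6.79 and 6.31 on the knockout-labelled array and 8.69 and 8.75 on the control array. Its paralog ARRDC4 stood at 5.04 on the knockout-labelled array and 7.18 on the control array, a log2 difference of -2.14 (4.41-fold lower, spread 0.395). Counting the genes themselves, 34 of the 12841 compared genes were as low as TXNIP or lower and 48 as low as ARRDC4 or lower. TXNIP has 2 promoter windows, of which the one printed above holds the match and the other none. The window of ARRDC4 is also printed above.

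With 64 linear units added to both arrays, ARRDC4 differed by -1.11. The glycolytic regulator PFKFB3 was lower by less, at -0.71 (1.64-fold, spread 0.412). So was the fatty acid elongase ELOVL6, at -0.59 with all 3 of its probe sets lower (spread 0.388). Scaled on the spike-ins, TXNIP differed by -1.15 and ARRDC4 by -0.95, while PFKFB3 turned to 0.47 and ELOVL6 to 0.60. The list, of which 11 of 12 genes were compared, had a median of -0.02. Below 0 were 6 genes (54.5%), where 45.1% of compared genes were, and 5 were above. At least 2-fold lower were 2 genes, where 3.79% of compared genes were, and 1.5-fold lower were 4 (36.4%), where 10.5% were, while none was 1.5-fold higher. Transketolase (TKT) differed by 0.28, just above its spread of 0.255, with all 3 probe sets higher. FASN (-0.23), ACACB (0.22), KLF10 (0.12), SCD (0.10), RGS16 (-0.02) and ACACA (0.01) lay within their spreads, and PKLR was under the floor. Of the 4 ACACB probe sets above the floor, 3 were lower, as were 3 of the 4 of SCD. FASN and ACACA each had 1 higher and 1 lower. MLXIPL, the Mondo paralog, differed by 0.03, at 6.08 on the knockout-labelled array and 6.05 on the control array, so that neither Mondo transcript nor MLX differed beyond its spread.

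Genes that MYC activates were more often lower than higher relative to all genes, although their median turns to 0.997 when scaled on the spike-ins. Of 104 listed targets 92 were compared, and the median was -0.19, beside 0.04 over all compared genes. Below 0 were 66 (71.7%), where 45.1% of compared genes were, and 26 were above 0. At 1.5-fold, 22 (23.9%) were lower, where 10.5% of compared genes were, and none was higher, where 5.83% were. At 2-fold, 2 of the 92 were lower, where 3.79% of compared genes were, so the tilt did not extend to that threshold, and none was higher, where 1.05% were. The tilt was clearest in ribosome biogenesis, where 30 of 36 (83.3%) were below 0, with a median of -0.28. RRS1, an assembly factor of the large ribosomal subunit, stood at 7.86 on the knockout-labelled array and 9.34 on the control array (-1.48). POLR1A, the largest subunit of RNA polymerase I, stood at 6.11 on the knockout-labelled array and 7.01 on the control array (-0.91), with all 3 of its probe sets lower. The nucleolar genes NOP16 (-0.83) and WDR43 (-0.76) followed, and NOP16 differed by -0.34 as the mean of its probe sets.

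Metabolic targets of MYC were nearer to the background, with a median of -0.09. Of 33, 19 (57.6%) were below 0, where 45.1% of compared genes were. Above 0 were 14, with SHMT2 (0.55) and MTHFD2 (0.48) highest, both in every probe set above the floor. CTPS1, which makes CTP from UTP, was lowest, at 7.30 on the knockout-labelled array and 8.81 on the control array (-1.51, 2.85-fold). The transferrin receptor TFRC (-0.86), the mitochondrial transcription factor TFAM (-0.82) and AMD1 of polyamine synthesis (-0.73) were lower in all of their probe sets above the floor, and TFRC differed by -0.46 as the mean of its probe sets. Translation and cell cycle targets had a median of -0.16, with 17 of 23 (73.9%) below 0. The arginine methyltransferase PRMT3 differed by -0.82, cyclin E1 (CCNE1) by -0.74, the phosphatase CDC25A by -0.60 and the helicase subunit MCM4 by -0.50. As the mean of its probe sets CCNE1 differed by -0.14.

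Genes that MYC represses fell into separate groups. Of 7 compared, 4 were at least 2-fold higher, where 1.05% of compared genes were, and 1 was 2-fold lower, where 3.79% were. The median was 1.14. This list, like the others here, was chosen with earlier results of these data known, so the shares describe the listed genes alone. DDIT3 (CHOP) stood at 10.4 on the knockout-labelled array and 6.99 on the control array (3.39), and NDRG1 at 9.32 on the knockout-labelled array and 6.97 on the control array (2.35). GADD45A (1.39) and the CDK inhibitor CDKN1B (1.14) were the other higher genes. DDIT3 and GADD45A are also known as genes of the stress response and NDRG1 as a hypoxia gene, and the part of those responses in these values was not tested. CEBPA, a differentiation factor, was lower, at 5.41 on the knockout-labelled array and 6.80 on the control array (-1.38), but differed by -0.72 with 64 linear units added. CDKN1A, the p21 gene that MYC represses with ZBTB17, differed by -0.22 and NDRG2 by -0.26, both within their spreads, and CDKN2B was under the floor.

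**Figure D4:**
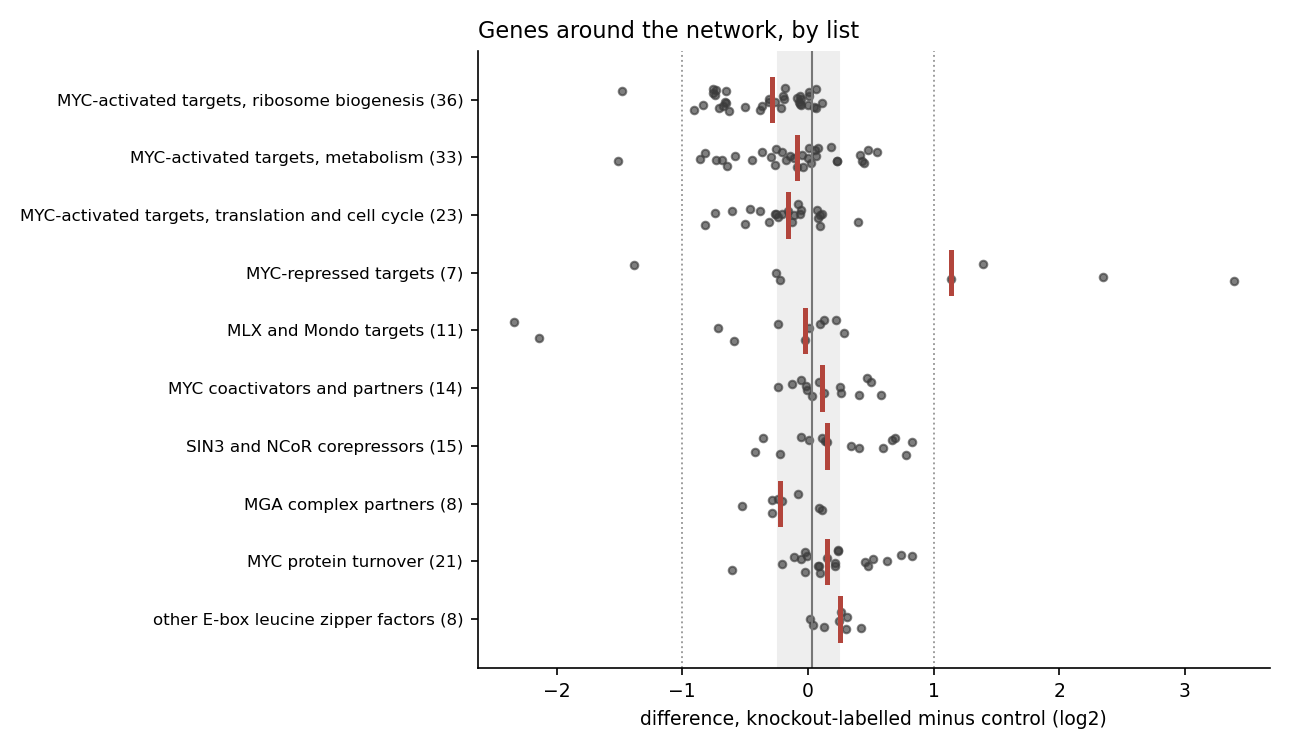
Difference, knockout-labelled minus control on the log2 scale (horizontal axis), of the compared genes of 10 lists around the network (points, with the number of genes in brackets) and the median of each list (red bar); the grey line and band are the median and the middle 50% of all compared genes. The ribosome biogenesis targets have a median of -0.28, and TXNIP and ARRDC4 stand apart in the Mondo list.

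No cofactor of either side differed by 2-fold in its brightest probe set. Of 15 compared SIN3 and NCoR corepressor genes 11 (73.3%) were above 0, where 52.9% of compared genes were. The median of the 15 was 0.15, and 5 were 1.5-fold higher, where 5.83% of compared genes were. SAP18 stood at 11.9 on the knockout-labelled array and 11.02 on the control array (0.83), but its other probe sets differed by 0.14 and 0.12. SUDS3 (0.78) and SAP30 (0.69) of the SIN3 complex were higher in every probe set above the floor. The brightest probe set of SIN3A differed by 0.67 and those next to it by -0.62 and -0.36, with a mean of -0.08 over all, so it has no settled direction. The deacetylases HDAC1 (-0.42) and HDAC2 (-0.36) were lower.

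MYC coactivators and partners had a median of 0.11 over 14 genes, and none was past 1.5-fold in its brightest probe set. BPTF, which differed by 0.09 in that probe set, differed by 1.09 in another. Of its 4 probe sets above the floor, 2 were higher and 2 lower. Of the 14, 9 (64.3%) were above 0, where 52.9% of compared genes were. ACTL6A of the chromatin remodelling complexes differed by 0.58, ZBTB17 (MIZ1), the partner through which MYC represses genes, by 0.51, and the elongation kinase subunits CDK9 and CCNT1 by 0.47 and 0.40. CDK9 differed by 0.06 as the mean of its probe sets. The partners of MGA in its repressor complex had a median of -0.22. Of 8, 6 (75%) were below 0, where 45.1% of compared genes were. Scaled on the spike-ins, that median turns to 0.97. The E2F partner TFDP1 was lowest, at 10.3 on the knockout-labelled array and 10.8 on the control array (-0.53, spread 0.255). L3MBTL2 (-0.28), PCGF6 (-0.28) and E2F6 (-0.23) followed, each within its spread, and none of the 8 was past 1.5-fold.

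Genes that set the stability of MYC protein had a median of 0.15 over 21 genes. Of the 21, 14 (66.7%) were above 0, where 52.9% of compared genes were. FBXW7, the ubiquitin ligase subunit that marks MYC for degradation, stood at 8.66 on the knockout-labelled array and 7.83 on the control array (0.83). Of its other probe sets that reached the floor, 2 were higher and 1 was lower, the mean of all being 0.28. SKP2, a second ligase subunit that acts on MYC, was lower, at 9.49 on the knockout-labelled array and 10.1 on the control array (-0.60). The kinase PIM1 (0.74) and the deubiquitinase USP36 (0.63), which stabilise MYC, were higher, and USP36 differed by 0.18 as the mean of its probe sets. MYC protein was not measured.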

How the data were processed

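HCT15 total RNA was measured on 1 Affymetrix array per group. The authors deposited log2 values from RMA (named without a version in the submitters' processing notes). RMA corrects background, quantile-normalises the arrays and summarises probes, and it compresses differences of dim probe sets. Of 54675 probe sets 62 were controls, and of the rest 41091 had 1 symbol, 1801 several and 11721 none in the platform annotation; the last 2 kinds named no gene. Of the 41091, 41037 were found by Entrez identifier in a RefSeq table (GRCh38.p14) and no symbol differed.

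Differences, spreads (10 bins of mean expression) and counts were computed with Python 3.11.15, pandas 2.3.3 and numpy 2.4.6. With 1 array per group no test was made. The procedure was run on simulated data with large differences planted in genes well above the floor. That checks the computation and cannot show how reliable values from 1 array per group are. The members and the 14 gene lists were chosen with earlier results of these data known. Named genes are all members and, for each list up to 4 compared genes with the largest absolute difference. HDAC1, HDAC2, CDKN1B, NDRG2, CDKN1A, SHMT2, MTHFD2, SREBF2, USF2 and EPCAM were added after their values were seen. So were the remaining Mondo targets and the genes under the floor. Alternatives were another floor, averaged or fewer probe sets, a loess trend (span 0.3), 3 other scalings, 64 linear units added and thresholds of 1.5-fold and 3-fold.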

Additional observations from a re-analysis of the deposited data

How the results depend on the processing

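Under the 8 alternatives other than scaling on the poly-A spike-ins, wherever they gave a value, all 9 measured members kept their direction. MYC ranged from -0.43 to -0.31, the antagonist median from 0.56 to 0.77 and MYC minus that median from -1.09 to -0.87. Activated targets ranged from -0.29 to -0.16 in their median. Scaling on the spike-ins raised every difference by 1.19, which put MYC at 0.86, MAX at 0.40, the antagonist median at 1.95, activated targets at 0.997 and repressed targets at 2.32, with 5 members 2-fold higher; MYC minus the antagonist median stayed at -1.09. That scaling made 9137 compared genes 2-fold higher and 44 lower, against 135 and 487. The count of members 2-fold higher was 0 with averaged probe sets, with the floor at the 75th percentile, with 64 units added and at 3-fold, 2 with arrays centred on their medians, where MXI1 crossed the threshold, and 3 at 1.5-fold. The count of members 2-fold lower was 2 at 1.5-fold. With no floor the median of repressed targets was 0.70, since CDKN2B then entered. Once probe sets marked as matching more than 1 transcript were left out, MYC and MXD3 had none left and MAX was under the floor, so these were not judged. No paired analysis was possible because each group has 1 array. The number of arrays limits every value, and dimness adds to this: 64 added units took MXD1, the dimmest measured member, to 0.58 and ARRDC4 to -1.11.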

Other observations

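Other E-box binding factors with a helix-loop-helix leucine zipper, which do not pair with MAX, were all on the higher side by small amounts. Of 9 listed, 8 were compared and 8 lay above 0, where 52.9% of compared genes did, with a median of 0.25 and none past 1.5-fold. MITF stood at 6.26 on the knockout-labelled array and 5.83 on the control array (0.43, spread 0.395). The lysosomal gene regulators TFE3 and TFEB differed by 0.31 and 0.26, and USF1 by 0.30. Of the 8, only MITF and TFEB (spread 0.258) passed their spreads, both barely. TFEC was under the floor. Scaling on ribosomal protein genes lowers each by 0.10, which takes SREBF2 (0.02) and USF2 (0.04) below 0.

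The paralogs of MYC lay not far from the floor of 4.59. MYCL stood at 5.51 on the knockout-labelled array and 5.35 on the control array, and MYCN at 4.69 on the knockout-labelled array and 4.55 on the control array. The other MYCL probe set above the floor differed by -0.07 and that of MYCN by -1.60, so neither gene has a settled direction.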
